A study of Mus musculus with 20 samples.

Results

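Wnt ligands, their receptors, their secreted antagonists and the intracellular proteins that carry the signal were followed through the reprogramming of mouse fibroblasts with and without knockdown of Ddx10. The genes were taken by name: every Wnt, Fzd (Frizzled), Sfrp and Dkk gene of the table, plus Lrp5, Lrp6, Axin1, Axin2, Lef1, Tcf7, Tcf7l1, Tcf7l2 and Ctnnb1. This gave 41 of the 15757 genes, made up of 15 ligands, 10 Frizzled receptors, 2 co-receptors, 7 secreted antagonists and 7 intracellular members. A further 5 names of the GENCODE annotation that match the rule (Wnt1, Wnt3a, Wnt8b, Wnt9b and Sfrp5) were not analysed here.

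The cells were passage 2 embryonic fibroblasts of OG2 mice, a strain with a green fluorescent reporter driven by Oct4 regulatory sequence, and their age and sex are not given in the labels. All groups were infected with retroviruses for the reprogramming factors Oct4, Sox2, Klf4 and Myc (OSKM) and kept in iCD1 medium. The labels do not give the composition of the medium, and its part in the Wnt changes over time was not tested. The control arm carried an shRNA against luciferase (shLuci), which has no target in mouse cells, and the knockdown arm an shRNA that targets Ddx10, which encodes an RNA helicase of the DEAD-box family that works in ribosome production. The series text mentions Ddx10 shRNAs in the plural, and no label says which hairpin a library received. RNA was sampled at days 0, 1, 3, 5 and 7, with 2 libraries in each of the 10 groups. Replicates are described as biological, yet separate cultures are named in no label, so the p-values below measure only the spread between these libraries.

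Secreted Wnt proteins bind a Frizzled receptor together with the co-receptor Lrp5 or Lrp6. In the canonical branch this stops the destruction complex, of which Axin1 and Axin2 are scaffolds, from marking beta-catenin (Ctnnb1) for degradation, and beta-catenin then switches on genes bound by the TCF/LEF factors. Sfrp proteins bind Wnt ligands outside the cell and Dkk proteins mostly act on Lrp5 and Lrp6, while Tcf7l1 is known as a repressor of pluripotency genes that beta-catenin relieves in mouse embryonic stem cells.

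Values are the authors' normalized gene values, and 2 values in a row are replicates 1 and 2 of a group. Differences are on the log2(value + 1) scale with a standard error (SE), which understates changes of low genes, and a gene is called where its limma p, adjusted by Benjamini and Hochberg over all 15757 genes, is under 0.05. Values summed to between about 15700000 and 21300000 per library, and the spacing of the lowest values gave rough depths of 12000000 to 23700000 reads. Ddx10 itself was at 523 and 499.9 in the control and 313 and 319 in the knockdown at day 0, and lower in the knockdown at each day, by 0.62 (day 7) to 1.58 (day 1) on the log2 scale (adjusted p = 5.85e-08 over the mean of all days). The summed level of 8 fibroblast markers was 482945 to 506925 in the control at day 0 and 115737 to 120981 at day 7. By day 7, 6 of the 8 were called lower and 0 higher in the control (all genes 33.7% and 38.6%). In the knockdown 6 were lower and 2 higher (all genes 30.9% and 36.2%). In the control the sum of 5 epithelial markers went from 168 to 197 up to 18186 to 19447. That of 6 pluripotency markers went from 10.9 to 18.1 up to 3452 to 3689. In the knockdown at day 7 the pluripotency sum was 4624 to 4957, of which Tdh, an enzyme of threonine breakdown, made up the most, with a mean of 3848 against 2363 in the control. Tdh was the 1 of these 6 markers called between arms at day 7, and the median difference of the 6 was -0.40 at day 7 and -1.07 at day 5. The sum of 6 macrophage and blood cell markers was 2094 to 3272 over the 4 libraries of day 0. Over those of day 1 it was 193 to 260.4, and in the control at day 7 it was 395 to 448. Lyz2 was the highest of them at day 0, and Tyrobp and Fcer1g were at 0 in the control at day 7. Between these days 4 of the 6 markers were called lower and 1 higher in the control (all genes 33.7% and 38.6%). These are bulk samples, in which fewer cells of a type and less RNA per cell cannot be told apart, and the part of these shifts in the Wnt values below was not tested.

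In the control arm 39 of the 41 genes differed between day 7 and day 0, 18 of them higher and 21 lower. In the same comparison 72.3% of all genes were called (38.6% higher and 33.7% lower). By role, of the 15 ligands 5 were higher and 10 lower, of the 10 receptors 4 and 5, of the 7 antagonists 4 and 2, and of the 7 intracellular members 4 and 3. Dkk1 (log2 1.19, adjusted p = 0.259) and Fzd9 (0.63, adjusted p = 0.268) did not pass the test. The median difference of the ligands was -1.29 and that of the antagonists 1.38, beside 0.09 over all genes. Under quantile scaling of the libraries the median of all genes moved to -0.08, and 38 members were called, 17 higher and 21 lower.

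Many calls were already present at day 1, with 26 members called, 11 of them higher and 15 lower, beside 55% of all genes (28.3% higher and 26.7% lower). There were 29 at day 3, 12 higher and 17 lower, beside 66.2% of all genes (34.9% and 31.3%). At day 5 there were 35, 17 higher and 18 lower, beside 70.2% of all genes (37.7% and 32.5%). In the knockdown arm 36 members differed between day 7 and day 0, 19 higher and 17 lower, beside 67.1% of all genes (36.2% and 30.9%), and under quantile scaling 34, of which 15 were higher and 19 lower. Each of these comparisons within the control arm shares the control libraries of day 0.

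**Figure D1:**
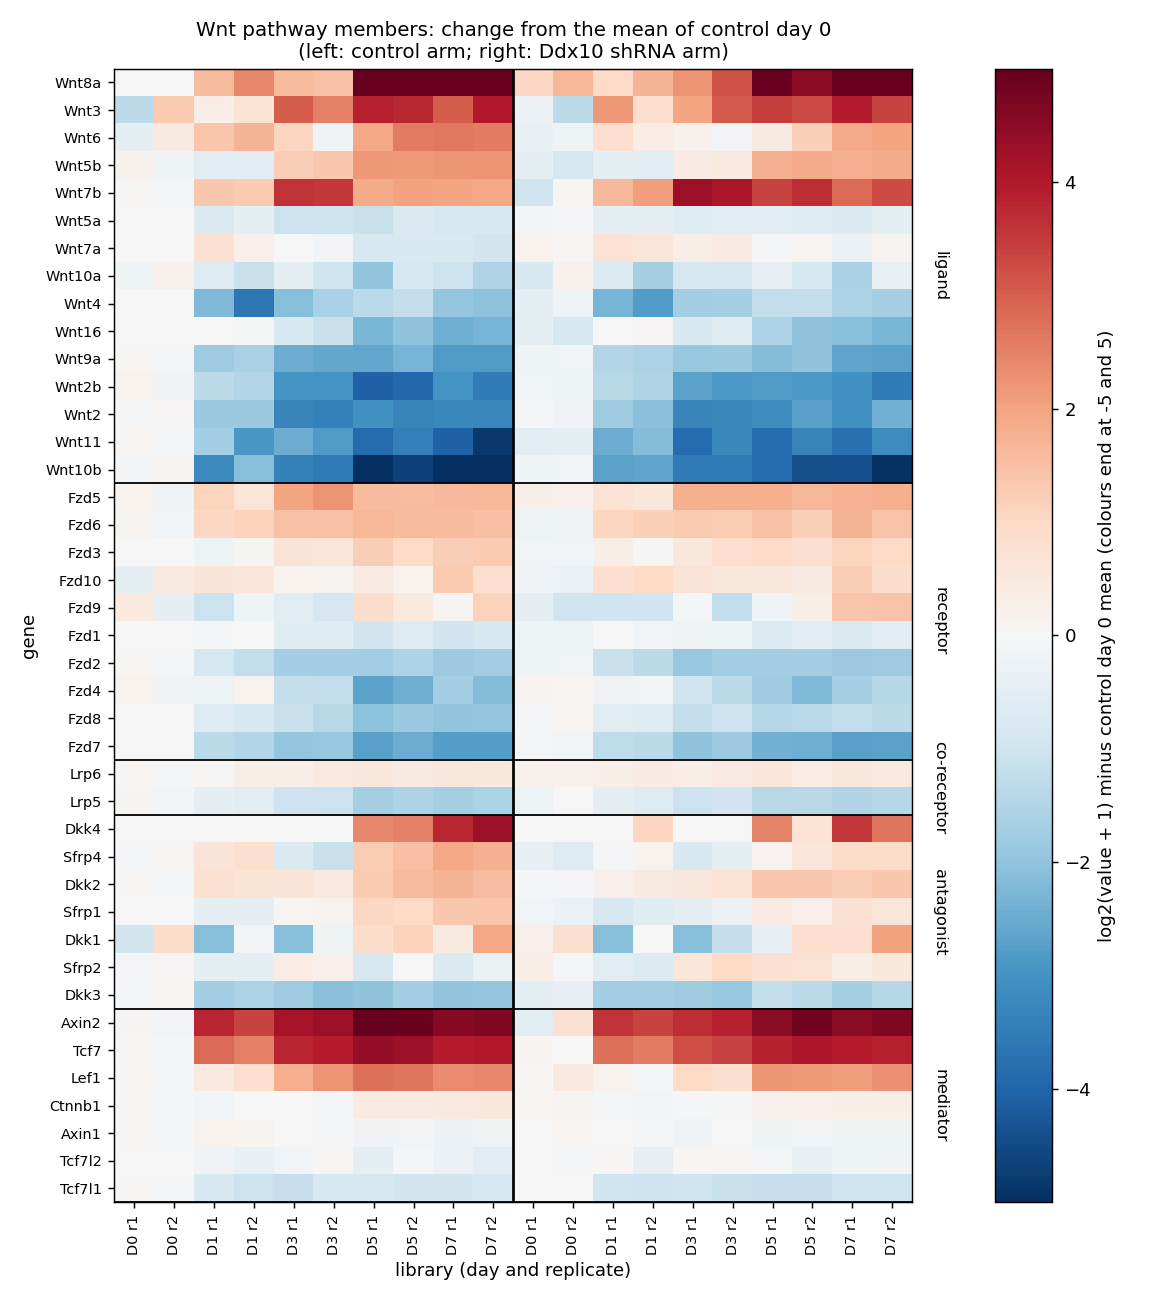
Change of each of the 41 genes (rows, grouped by role) in each of the 20 libraries (columns, control arm on the left and Ddx10 shRNA arm on the right) as log2(value + 1) minus the mean of the 2 control libraries of day 0, with colours ending at -5 and 5. Of the 15 ligands 8 were called lower by day 1 in the control (blue), while Axin2, Tcf7 and Lef1 turn red, and Wnt8a and Dkk4, which were listed at 0 in the control at day 0, turn red late.

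Stretches of promoter are shown for Axin2 and Lef1, which rose in the control, and for Wnt11 and Wnt5b, ligands that fell and rose, since beta-catenin acts through TCF/LEF factors, whose sites often hold the core CTTTGA. Windows run from 250 bases before to 50 bases after a gene's start in the RefSeq table (build GRCm38.p6) and were found for 26 of the 41 genes. The core was searched on both strands: 5 of these 26 genes had it (Dkk1, Fzd1, Lef1, Wnt11 and Wnt5b), as had 5 of their 35 windows, beside 16.0% of all 32851 windows. Capitals mark the core or its reverse complement, and each stretch is printed 5′ to 3′ on the gene's strand.
Lef1: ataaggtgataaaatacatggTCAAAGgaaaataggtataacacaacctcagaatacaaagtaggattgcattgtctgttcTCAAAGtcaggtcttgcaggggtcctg
Wnt11: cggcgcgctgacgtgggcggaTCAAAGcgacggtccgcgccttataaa
Wnt5b: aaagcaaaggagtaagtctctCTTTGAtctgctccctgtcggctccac
Axin2: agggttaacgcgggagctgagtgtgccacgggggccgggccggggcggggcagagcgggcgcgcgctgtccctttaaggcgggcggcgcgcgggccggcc
The Lef1 stretch is chr3:131156093-131156200 (plus strand), that of Wnt11 chr7:98835041-98835088 (plus strand) and that of Wnt5b chr6:119449431-119449478 (minus strand). That of Axin2 is chr11:108920249-108920348 (plus strand), the 100 bases before its start, in which the core was not found. For Lef1 and Wnt5b the RefSeq table places the start used inside the gene. The last 25 bases of the Lef1 window were found in no GENCODE transcript of Lef1. None of the 4 stretches overlaps an annotated exon, they were picked after the values were seen, and a match is a description of letters and no evidence of binding.

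Of the 15 ligands 10 were lower and 5 higher at day 7 than at day 0 in the control. Wnt10b, a canonical ligand known to hold back fat cell formation, was at 240.4 and 293 in the control at day 0, 28.3 and 60.7 at day 1 and 3.96 and 7.23 at day 7. Its knockdown values were 227 and 241 at day 0 and 11.6 and 7.58 at day 7. It fell in both arms, and the control change was -5.38 (SE 0.359, adjusted p = 1.55e-09). Wnt11, known for signalling without beta-catenin in cell movement, was at 494 and 427 at day 0, 81.04 and 63.7 at day 3 and 27.2 and 15.05 at day 7 in the control. Knockdown libraries had Wnt11 at 313 and 339 (day 0), 30.7 and 47.8 (day 3) and 33.7 and 51.6 (day 7). The control libraries of day 7 lay below every earlier control library, with a change of -4.43 (SE 0.378, adjusted p = 3.56e-08).

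The other 8 ligands that were lower at day 7 in the control ranged from -0.83 (Wnt5a) to -3.25 (Wnt2) on the log2 scale. Wnt9a was at 839 and 762 at day 0 and 236 and 261 at day 1, so that most of its fall was over by the first day. Wnt2b, a canonical ligand, was at 279 and 215 at day 0, 13.8 and 15.2 at day 5 and 29.9 and 20.9 at day 7. Both control libraries of day 5 lay below those of day 7. Wnt2, its closest relative, was at 531 and 569.7 at day 0 and 57.6 and 56.1 at day 7. Wnt16 was at 101 and 100.05 (day 0) and 17.7 and 19.1 (day 7), Wnt4 at 168 and 175 (day 0) and 43.9 and 40.1 (day 7), and Wnt10a at 16.3 and 22.2 (day 0) and 8.55 and 6.06 (day 7). None of these 4 ligands was called between the arms at any day. Per kilobase of exon, Wnt5a stood first among the ligands at both ends of the course, at 361 and 359 per kb at day 0 and 195 and 209.9 per kb at day 7 in the control.

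The 5 ligands that were higher at day 7 were Wnt3, Wnt5b, Wnt6, Wnt7b and Wnt8a. Wnt8a, a ligand of the early embryo's primitive streak, was listed at 0 in both control libraries of day 0, at 2.004 and 1.75 at day 3, 65.7 and 41.03 at day 5 and 142 and 136 at day 7. In the knockdown it was at 1.03 and 2.20 (day 0), 3.81 and 8.10 (day 3), 29.5 and 21.4 (day 5) and 107 and 80.2 (day 7). By day 7 it was the second ligand per kilobase in the control (81.1 and 78.0 per kb), and the knockdown libraries of days 5 and 7 lay below those of the control, without passing the test (adjusted p = 0.198 and 0.581). Wnt3, a canonical ligand needed for gastrulation, was at 0 and 5.07 at day 0, 35.4 and 32.3 at day 5 and 18.9 and 38.1 at day 7 in the control. Knockdown libraries had Wnt3 at 1.03 and 0 (day 0), 25.9 and 23.5 (day 5) and 36.8 and 24.97 (day 7). The control change of Wnt3 was 3.50 (SE 0.709, adjusted p = 0.000351), and its size moved between 2.07 and 5.23 with the pseudocount and the library left out.

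Wnt7b was the ligand with a peak in the middle. Its control values were 5.40 and 5.004 at day 0, 14.9 and 14.3 at day 1, 75.2 and 71.6 at day 3, 21.2 and 24.2 at day 5 and 23.6 and 22.7 at day 7. In the knockdown they were 2.12 and 5.65 (day 0), 18.2 and 25.6 (day 1), 120.2 and 105 (day 3), 62.8 and 79.2 (day 5) and 43.4 and 58.2 (day 7). The knockdown libraries lay above those of the control from day 1 on, and the arms differed by 1.60 (SE 0.328, adjusted p = 0.00607) at day 5 and 0.68 (SE 0.147, adjusted p = 0.00474) over the mean of all days. Leaving out control replicate 1 or knockdown replicate 2 ended the day 5 call (adjusted p up to 0.0699).

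Wnt7a, the paralog of Wnt7b, was at 178 and 186 at day 0, 184 and 164 at day 3, 103 and 108 at day 5 and 106 and 95.4 at day 7 in the control. Knockdown libraries had Wnt7a at 204 and 190.4 (day 0), 228 and 239.9 (day 3), 170.3 and 195 (day 5) and 148 and 202 (day 7). The control had fallen below its starting level by day 5, and the knockdown libraries were the higher pair on each of these 4 days. At day 1, the highest day by mean in both arms, the arms overlapped (308 and 215 in the control, 300 and 280 in the knockdown). The difference between arms was 0.78 (SE 0.172, adjusted p = 0.00973) at day 5, 0.78 (SE 0.172, adjusted p = 0.0127) at day 7 and 0.45 (SE 0.0770, adjusted p = 0.000865) over all days. The day 5 call was lost without control replicate 1 or knockdown replicate 2 (adjusted p up to 0.0903), and the day 7 call without either control library or knockdown replicate 2 (up to 0.21).

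Wnt5a and Wnt5b, which mostly signal without beta-catenin, went opposite ways over time and between the arms. Wnt5a was at 2820.5 and 2806 in the control at day 0, 1335 and 1385 at day 3 and 1529 and 1642 at day 7, and in the knockdown at 2589 and 2647 (day 0), 1796 and 1939 (day 3) and 1709 and 2085 (day 7). The knockdown libraries were the lower pair at day 0 and the higher pair at each later day, with a difference of 0.46 (SE 0.114, adjusted p = 0.0325) at day 3 and 0.22 (SE 0.0508, adjusted p = 0.00712) over all days. Wnt5b was at 43.9 and 31.97 at day 0, 90.2 and 95.7 at day 3 and 176 and 179.9 at day 7 in the control. Knockdown libraries had Wnt5b at 26.3 and 21.05 (day 0), 50.1 and 53.3 (day 3) and 135 and 137 (day 7). Its values rose over the course in both arms, and the knockdown libraries were the lower pair on each of these days, with a difference of -0.83 (SE 0.185, adjusted p = 0.0188) at day 3 and -0.44 (SE 0.0828, adjusted p = 0.00193) over all days. Both day 3 calls were lost without any 1 of the 4 libraries of that day (adjusted p up to 0.195 for Wnt5a and 0.135 for Wnt5b), while the calls over all days held without each of the 20 libraries in turn.

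Wnt9a and Wnt2b were also called higher in the knockdown, on 1 day each. Wnt9a was at 144 and 133 in the control and 213 and 217 in the knockdown at day 3, a difference of 0.63 (SE 0.119, adjusted p = 0.00894), and differed by 0.23 (SE 0.0532, adjusted p = 0.00742) over all days. Its day 3 call was lost without control replicate 2 or either knockdown library (adjusted p up to 0.081). Wnt2b was at 13.8 and 15.2 in the control and 33.8 and 32.9 in the knockdown at day 5, a difference of 1.15 (SE 0.228, adjusted p = 0.00489), while at day 7 the arms overlapped (29.9 and 20.9 against 29.1 and 20.6). This call was lost without control replicate 1 (adjusted p = 0.0566) and in a fit of only these 4 libraries (adjusted p = 0.0518). Wnt6, a ligand of epithelia, was low throughout, with 15.6 and 25.7 in the control and 4.94 and 8.85 in the knockdown at day 5 and 25.9 and 24.6 against 15.2 and 16.1 at day 7. It differed by -0.76 (SE 0.216, adjusted p = 0.0248) over all days, a call that was lost without any 1 of 6 of the 20 libraries (control day 0 replicate 2, day 3 replicate 1 and day 5 replicate 2, and knockdown day 1 replicate 2, day 3 replicate 2 and day 5 replicate 1; adjusted p up to 0.0595).

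**Figure D2:**
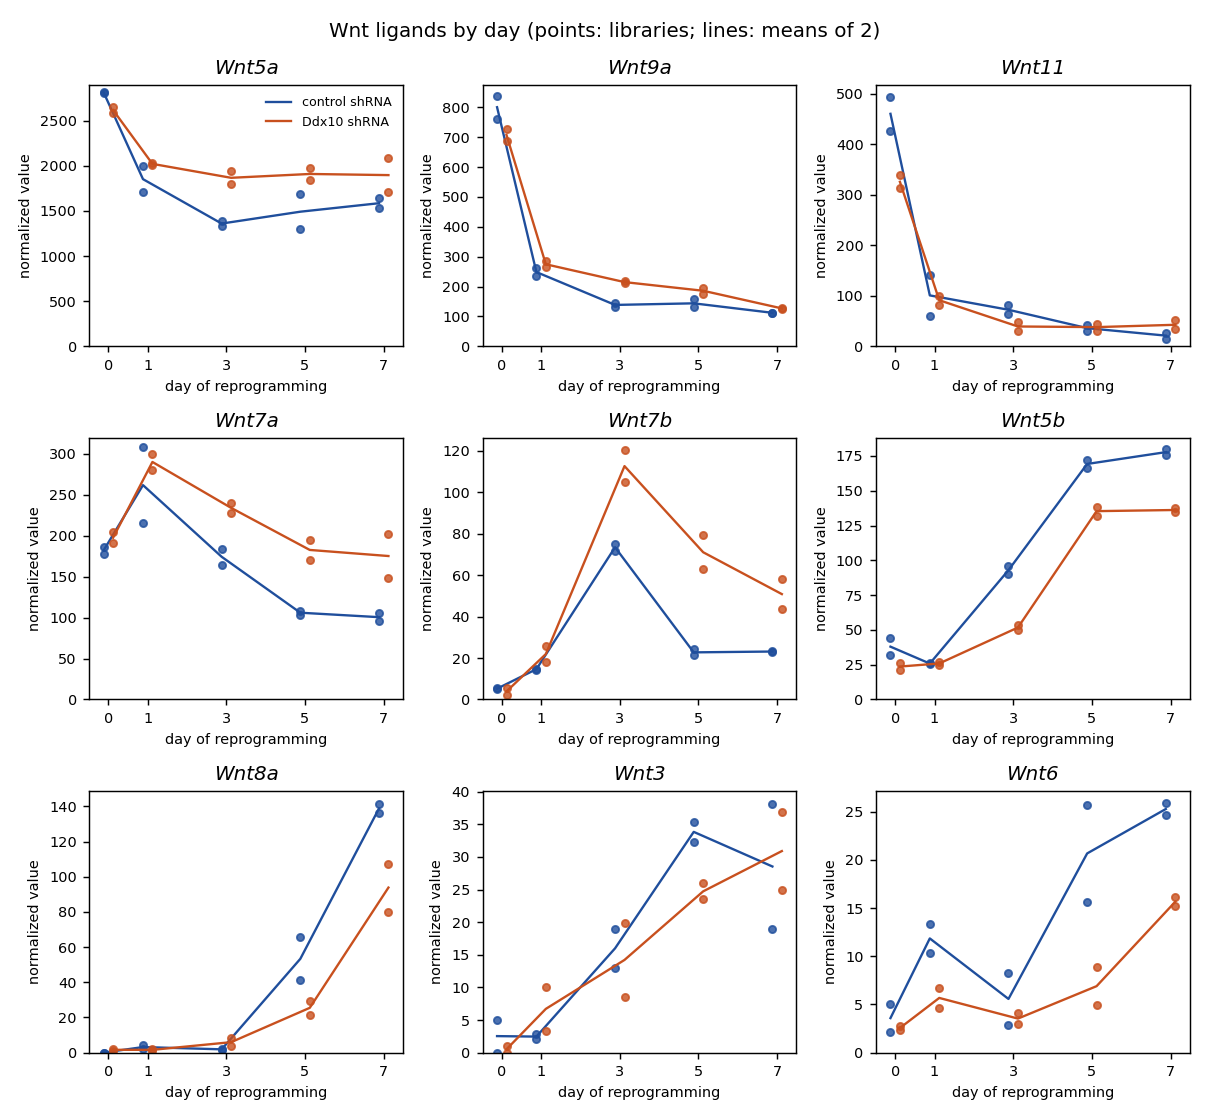
Normalized values (vertical axes, linear and starting at 0) of 9 Wnt ligands by day of reprogramming, with points for single libraries and lines through the means of 2. Wnt5a, Wnt9a and Wnt11 fall from day 0 in both arms, Wnt7a and Wnt7b stay higher in the knockdown at days 5 and 7, and Wnt8a appears at day 5.

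Of the 10 Frizzled receptors 5 were lower and 4 higher at day 7 than at day 0 in the control. Fzd7, known in stem cells, and Fzd2 had the highest levels per kilobase at day 0, at 773 and 739 per kb for Fzd7 and 768 and 695 per kb for Fzd2 in the control. Fzd7 was at 3503 and 3349.8 at day 0, 1343 and 1238 at day 1, 519.5 and 608 at day 5 and 505 and 501 at day 7, a change of -2.77 (SE 0.0865, adjusted p = 1.77e-13), the largest among the receptors. Its knockdown values were 3241 and 3151 at day 0 and 517 and 534 at day 7, and the arms differed by no call at any day. Fzd2 went from 2812 and 2545 to 765 and 800.5 over the same time, a change of -1.77 (SE 0.106, adjusted p = 4.2e-10). Fzd4, also the receptor of the non-Wnt ligand norrin, went from 189 and 152 to 51.8 and 37.3, a change of -1.92 (SE 0.220, adjusted p = 9.65e-07).

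The receptors that were higher at day 7 in the control were Fzd3, Fzd5, Fzd6 and Fzd10, by 1.07 to 1.64 on the log2 scale. Fzd5, which binds canonical ligands, was at 337 and 266 at day 0, 1167 and 1418 at day 3 and 915 and 953 at day 7, and at 366 and 354 (day 0), 1037 and 1039.8 (day 3) and 1000.1 and 1057 (day 7) in the knockdown. Fzd3 went from 155 and 153 (day 0) to 365 and 386 (day 7) in the control, Fzd6 from 234 and 191 to 633 and 605 and Fzd10 from 26.3 and 50.7 to 91.6 and 66.3. None of these 4 receptors was called between the arms. At day 7 Fzd2 and Fzd5 led the receptors per kilobase in the control, with 209 and 219 per kb for Fzd2 and 132 and 138 per kb for Fzd5, while Fzd1 (124 and 139 per kb) overlapped Fzd5. Fzd9 did not exceed 33.6 in any library.

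Fzd8 was the receptor that differed between the arms at more than 1 day. It was at 515 and 507 at day 0, 236 and 193 at day 3, 122 and 141 at day 5 and 130.4 and 134 at day 7 in the control. Knockdown libraries had Fzd8 at 481 and 552 (day 0), 221 and 251 (day 3), 190.5 and 201 (day 5) and 218 and 205 (day 7). It fell in both arms, by 1.94 on the log2 scale in the control, and the knockdown libraries lay above those of the control at days 5 and 7. The differences were 0.57 (SE 0.126, adjusted p = 0.00886) at day 5, 0.68 (SE 0.126, adjusted p = 0.00416) at day 7 and 0.30 (SE 0.0563, adjusted p = 0.00178) over all days. The calls at day 7 and over all days held without each library in turn, while that at day 5 was lost without control replicate 1 or either knockdown library (adjusted p up to 0.122).

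Fzd1, a receptor for canonical ligands, was at 659 and 663 in the control and 905 and 882 in the knockdown at day 3, a difference of 0.43 (SE 0.101, adjusted p = 0.0238). The call was lost without any 1 of these 4 libraries (adjusted p up to 0.154). The co-receptors moved apart in the control: Lrp5 went from 2650.3 and 2171 at day 0 to 757 and 806 at day 7, a change of -1.62 (SE 0.0988, adjusted p = 5.28e-10). Lrp6 went from 1846 and 1611 to 2578 and 2494, a change of 0.56 (SE 0.0999, adjusted p = 0.000119). Per kilobase Lrp5 was the higher of the pair at day 0 (272 and 223 against 135 and 118 per kb), and Lrp6 at day 7 (189 and 182 against 77.8 and 82.8 per kb). Neither co-receptor was called between the arms at any day.

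The secreted antagonists held 4 of the 13 members that differed between arms over the mean of all days. Sfrp1, which binds Wnt ligands, was at 708 and 737 at day 0, 518 and 522 at day 1, 747 and 811 at day 3, 1478 and 1452 at day 5 and 1855 and 1905 at day 7 in the control. In the knockdown it was at 659 and 594 (day 0), 419 and 469 (day 1), 532 and 587 (day 3), 959 and 872 (day 5) and 1226 and 1098 (day 7). Both arms were lowest at day 1 and highest at day 7, and the knockdown libraries were the lower pair on all 5 days. The differences were -0.48 (SE 0.0902, adjusted p = 0.00896) at day 3, -0.68 (SE 0.0902, adjusted p = 0.000268) at day 5, -0.70 (SE 0.0902, adjusted p = 0.000303) at day 7 and -0.46 (SE 0.0403, adjusted p = 3.78e-06) over all days, the smallest adjusted p of any member between arms. The calls at days 5 and 7 and over all days held without each library in turn, and that at day 3 was lost without control replicate 2 or knockdown replicate 1 (adjusted p up to 0.102).

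Sfrp4, another Wnt-binding protein, was at 72.4 and 78.5 at day 0, 45.1 and 34.1 at day 3, 181 and 213 at day 5 and 287 and 261 at day 7 in the control. Knockdown libraries had Sfrp4 at 56.8 and 48.3 (day 0), 43.8 and 54.9 (day 3), 86.3 and 114 (day 5) and 145 and 144 (day 7). The arms overlapped at day 3, its lowest day in the control, and the knockdown was the lower pair on the other 3. The differences were -0.98 (SE 0.194, adjusted p = 0.00491) at day 5, -0.92 (SE 0.194, adjusted p = 0.0103) at day 7 and -0.55 (SE 0.0870, adjusted p = 0.000467) over all days. Without knockdown replicate 1 the day 5 call was lost (adjusted p = 0.0887), and without control replicate 1 or either knockdown library that at day 7 (adjusted p up to 0.105).

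Sfrp2 went the other way from Sfrp1 and Sfrp4. It was at 206 and 237 at day 0, 285 and 263 at day 3, 127 and 221 at day 5 and 134 and 174 at day 7 in the control. Knockdown libraries had Sfrp2 at 274 and 213 (day 0), 333 and 439 (day 3), 372 and 366 (day 5) and 272 and 319 (day 7). The arms overlapped at day 0, and the knockdown was the higher pair on the other 3 days, while at day 1 it was the lower one (152 and 139 against 161 and 163). The differences were 1.14 (SE 0.218, adjusted p = 0.00382) at day 5, 0.94 (SE 0.218, adjusted p = 0.0163) at day 7 and 0.51 (SE 0.0976, adjusted p = 0.00216) over all days. The day 5 call was lost without control replicate 1 (adjusted p = 0.076), and leaving out either that library's day 7 counterpart or knockdown replicate 2 ended the day 7 call (up to 0.197).

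The Dkk genes differed among themselves. Dkk2 rose in the control from 347 and 318 at day 0 to 1079.9 and 975 at day 7, a change of 1.63 (SE 0.109, adjusted p = 1.64e-09), and was at 321 and 306 (day 0) and 789 and 856 (day 7) in the knockdown. The knockdown was the lower pair at days 1 and 7. Over all days Dkk2 differed between arms by -0.16 (SE 0.0488, adjusted p = 0.0328), a call lost without any 1 of 10 of the 20 libraries (control day 0 replicate 1, day 3 replicate 1, day 5 replicate 2 and day 7 replicate 1, and knockdown day 0 replicate 2, day 1 replicate 1, day 3 replicate 1, both of day 5 and day 7 replicate 1; adjusted p up to 0.0761). Dkk4, itself known as a target of beta-catenin, was listed at 0 in the control at days 0, 1 and 3, at 4.33 and 4.79 at day 5 and 12.8 and 18.8 at day 7, and at 10.6 and 5.42 in the knockdown at day 7. Dkk1, the best known antagonist of Lrp6, did not exceed 16.3 in any library.

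Dkk3, the family member that does not bind Lrp6 like the others, fell in the control from 893 and 1032 at day 0 to 295 and 324 at day 1 and 241 and 253 at day 7, a change of -1.96 (SE 0.129, adjusted p = 1.3e-09). In the knockdown it was at 702 and 718 at day 0, 286 and 299 at day 1, 418 and 381 at day 5 and 300.4 and 353 at day 7, beside 238 and 288 in the control at day 5. The knockdown was the lower pair at day 0 and the higher pair at days 5 and 7, with a difference of 0.61 (SE 0.129, adjusted p = 0.00739) at day 5. That call was lost without replicate 1 of either arm (adjusted p up to 0.123).

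**Figure D3:**
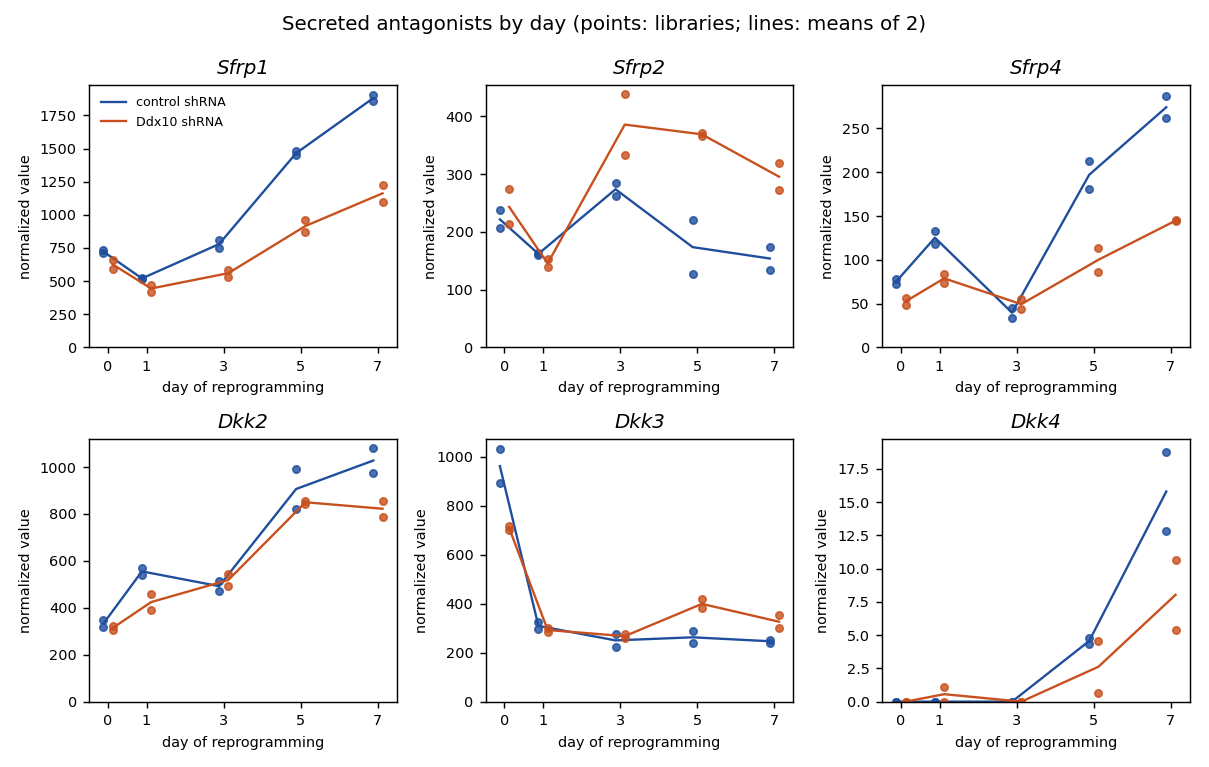
Normalized values (vertical axes, linear and starting at 0) of 6 secreted antagonists by day, with points for single libraries and lines through the means of 2. At days 5 and 7 the knockdown lies below the control for Sfrp1 and Sfrp4 and above it for Sfrp2 and Dkk3. It is also below for Sfrp1 on the earlier days and for Sfrp4 at days 0 and 1, and above for Sfrp2 at day 3.

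Epithelial markers also differed between the arms. At day 5 their sum was 16191 to 17408 in the control and 7759 to 8064 in the knockdown, and 4 of the 5 markers were called lower. At day 7 it was 18186 to 19447 against 10673 to 11373, with 2 called lower. On these days Sfrp1 and Sfrp4 were lower in the knockdown as well, while Sfrp2 and Dkk3 were higher. Sfrp1 and Sfrp4 were also the lower pair at day 0, where the epithelial sums overlapped (168 to 197 in the control, 182 to 183 in the knockdown). At day 3 the epithelial sum was 4792 to 4993 against 2616 to 2681, with Krt8, Cdh1 and Cldn3 of the 5 markers called lower. Sfrp1 was the lower pair on that day, while Sfrp4 overlapped. Of the 8 fibroblast markers 0 were called at day 3, 1 was called higher at day 5, 1 at day 7 and 2 over all days. Beside these, 4.77% of all genes were called at day 3, 8.73% at day 5, 6.17% at day 7 and 17.8% over all days. The fibroblast sum was lower in the knockdown at day 0 (406520 to 435551 against 482945 to 506925) and higher at day 3 (182256 to 189669 against 146446 to 154583) and day 5 (153215 to 158052 against 133631 to 151836), and it overlapped at day 7 (120476 to 138361 against 115737 to 120981). Dkk3 and Wnt5a were likewise the lower pair in the knockdown at day 0 and the higher pair at day 5. At day 3 Wnt5a was the higher pair too, while Dkk3 overlapped (277 and 259 against 276 and 225). At day 7, where the fibroblast sum overlapped, Dkk3 and Wnt5a were the higher pair. No defining marker of either list was at 0 in any group, and their part in the Wnt differences was not tested.

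Among the intracellular members Axin2, Tcf7 and Lef1 each rose by more than 2 on the log2 scale in the control, while Tcf7l1 fell. Axin2 (chr11:108920349-108950783 in mm10), a scaffold that beta-catenin itself induces as negative feedback, was at 56.98 and 47.8 in the control at day 0, 741 and 549 at day 1, 931 and 1029 at day 3, 1890.2 and 1605 at day 5 and 1246 and 1352 at day 7. In the knockdown it was at 35.4 and 89.1 (day 0), 657 and 553 (day 1), 689 and 782 (day 3), 1210.3 and 1503 (day 5) and 1221 and 1364 (day 7). In the control it rose on the first day and was highest at day 5, with a change of 4.61 (SE 0.300, adjusted p = 7.69e-09) by day 7. At days 3 and 5 the knockdown was the lower pair, by 0.42 and 0.37 on the log2 scale, without passing the test (adjusted p = 0.503 and 0.533), and at day 7 the arms overlapped.

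Tcf7 (chr11:52252371-52283014), a TCF factor that activates with beta-catenin, was at 40.7 and 37.3 at day 0, 280.3 and 226 at day 1, 552 and 601 at day 3, 835 and 778 at day 5 and 602 and 638 at day 7 in the control. Knockdown libraries had Tcf7 at 42.8 and 38.2 (day 0), 268 and 240.2 (day 1), 372 and 413 (day 3), 575 and 661 (day 5) and 613 and 589 (day 7). The control change to day 7 was 3.96 (SE 0.126, adjusted p = 2.16e-13). The arms overlapped at days 0, 1 and 7, and the knockdown was the lower pair at days 3 and 5, with a difference of -0.56 (SE 0.126, adjusted p = 0.0211) at day 3 and -0.18 (SE 0.0563, adjusted p = 0.0342) over all days. The day 3 call was lost without any 1 of its 4 libraries (adjusted p up to 0.177). The call over all days was lost without any 1 of 12 of the 20 libraries (control day 0 replicate 1, day 1 replicate 1, day 3 replicate 2, day 5 replicate 1 and both of day 7, and knockdown day 0 replicate 2, day 1 replicate 2, day 3 replicate 1, day 5 replicate 1 and both of day 7; up to 0.0831).

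Lef1 (chr3:131110471-131224356), the related factor whose window holds the core at 2 places on the stretch printed above, was at 38.4 and 33.5 at day 0, 51.2 and 65.8 at day 1, 129 and 172 at day 3, 249 and 236 at day 5 and 186 and 195 at day 7 in the control. In the knockdown it was at 37.2 and 50.6 (day 0), 40.2 and 33.2 (day 1), 72.8 and 63.8 (day 3), 171 and 162 (day 5) and 155 and 179.6 (day 7). The control rose by 2.38 (SE 0.201, adjusted p = 2.84e-08) to day 7, and the knockdown was the lower pair from day 1 on, and its day 3 values overlapped the day 1 values of the control. The difference was -1.12 (SE 0.201, adjusted p = 0.00734) at day 3 and -0.45 (SE 0.0901, adjusted p = 0.00295) over all days. The day 3 call was lost without control replicate 2 or either knockdown library (adjusted p up to 0.0898), and that over all days held without each library in turn.

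Tcf7l1 was lower by day 1 in both arms, going from 1197 and 1125 to 683 and 556 in the control and from 1159 and 1157 to 579 and 563 (day 1) in the knockdown, and the control was at 608 and 634 at day 7, a change of -0.90 (SE 0.110, adjusted p = 2.11e-06). Ctnnb1, beta-catenin itself, had the highest level per kilobase of the intracellular members (3115 and 2872 per kb at day 0 in the control). It was at 16171 and 14909 at day 0 and 21891 and 22135 at day 7 in the control. Knockdown libraries had Ctnnb1 at 16398 and 17093 at day 0 and 19042 and 19267 at day 7. At days 5 and 7 the knockdown was the lower pair, with adjusted p of 0.0644 and 0.0549. Axin1 stayed between 903 and 1233 in all libraries and Tcf7l2 between 269.98 and 416, and neither was called between arms.

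**Figure D4:**
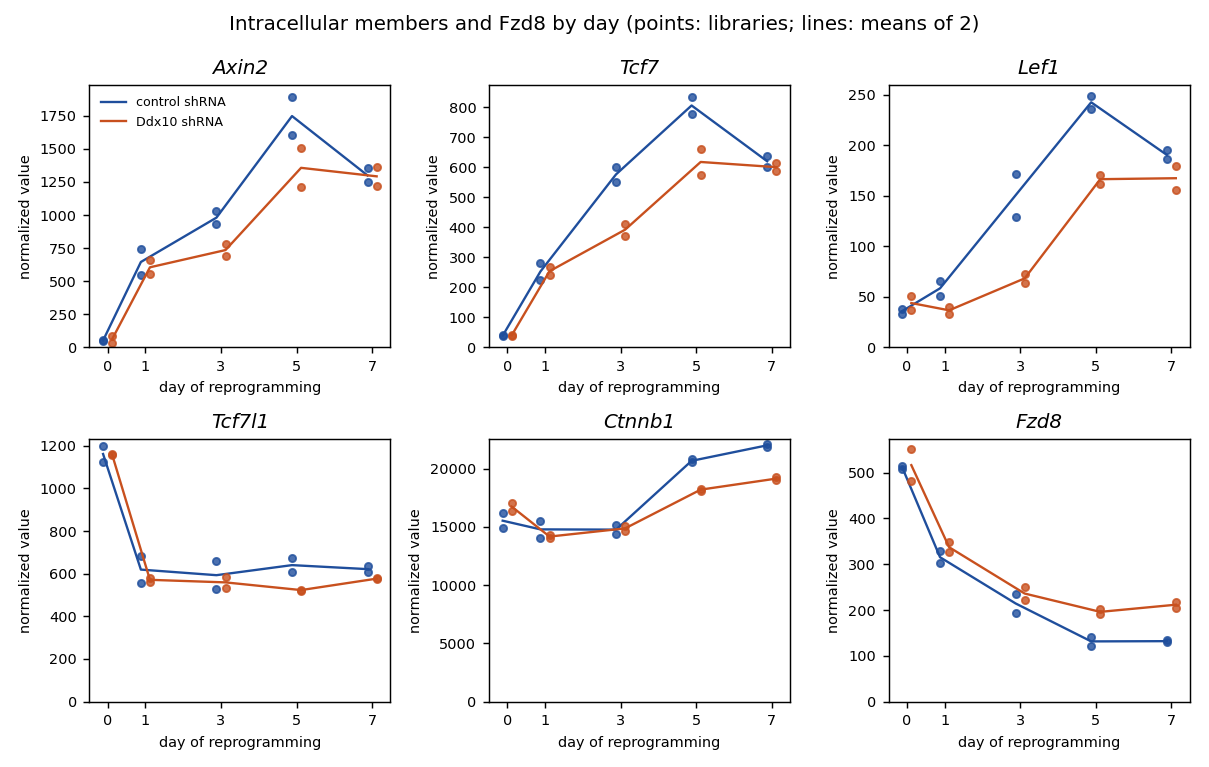
Normalized values (vertical axes, linear and starting at 0) of 5 intracellular members and of the receptor Fzd8 by day, with points for single libraries and lines through the means of 2. Tcf7 and Lef1 of the knockdown lie below the control at days 3 and 5 and meet it again or come closer at day 7, while Fzd8 stays above the control at days 5 and 7.

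Counted over all 41 genes, differences between the arms were called from day 3 on. At day 0 the limma test called 0 members (8 had an unadjusted p under 0.05), beside 3.31% of all genes (2.49% higher and 0.812% lower). At day 1 it called 0 as well (5 had an unadjusted p under 0.05), beside 0.146% of all genes (0.0254% and 0.121%). At day 3 there were 7 calls, 3 higher and 4 lower in the knockdown, beside 4.77% of all genes (2.51% and 2.25%). At day 5 there were 8, 6 higher and 2 lower, beside 8.73% of all genes (5.83% and 2.9%), and under quantile scaling 13, 8 higher and 5 lower. At day 7 there were 5, 3 higher and 2 lower, beside 6.17% of all genes (4.65% and 1.52%), and under quantile scaling 8, 5 higher and 3 lower. Library weights gave 14 calls at day 5 and 10 at day 7, and a fit of the compared groups 8 at day 7. The mean of all days gave 13 calls, 6 higher and 7 lower, or 31.7% of the members, beside 17.8% of all genes (10.3% higher and 7.46% lower).

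By role, these 13 were 6 of the 15 ligands (4 higher, 2 lower), 1 of the 10 receptors (higher), 0 of the 2 co-receptors, 4 of the 7 antagonists (1 higher, 3 lower) and 2 of the 7 intracellular members (both lower). The median difference was 0.13 for the ligands, -0.16 for the antagonists and -0.12 for the intracellular members, beside 0.00 over all genes. Leaving out 1 library, the count of calls ranged from 10 to 15 for the mean of all days. At day 3 it went from 0 to 3, with 0 if control replicate 2 or knockdown replicate 1 was dropped, 1 for knockdown replicate 2 and 3 for control replicate 1. It went from 2 (without control replicate 1) to 10 at day 5, with 5 without either knockdown library, and from 2 to 5 at day 7, with 2 if control replicate 1 or knockdown replicate 2 was dropped.

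**Figure D5:**
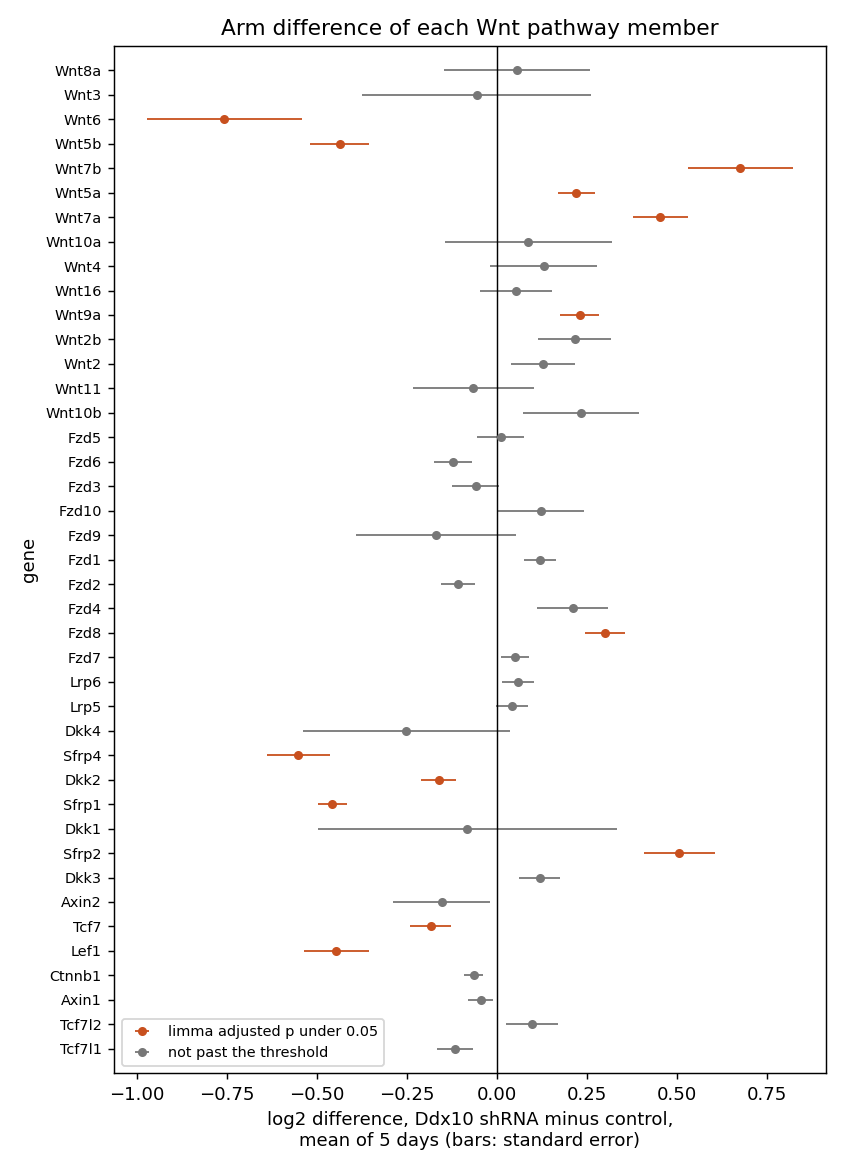
Difference between the arms (Ddx10 shRNA minus control, mean of 5 days, log2 scale) of each of the 41 genes, with bars for the standard error and orange for limma adjusted p under 0.05. The 13 called genes run from -0.76 (Wnt6) to 0.68 (Wnt7b).

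The change from day 0 to day 7 itself differed between the arms for 4 members, 2 in each direction, beside 6.38% of all genes (3.92% higher and 2.46% lower). Dkk3 fell less in the knockdown, by 0.83 (SE 0.182, adjusted p = 0.0147), as did Fzd8, by 0.66 (SE 0.178, adjusted p = 0.0381). Sfrp1 rose less in the knockdown, at -0.49 (SE 0.128, adjusted p = 0.0342), as did Ctnnb1, at -0.31 (SE 0.0827, adjusted p = 0.038). With the replicate number as a block, Fzd8 (adjusted p = 0.0518) and Ctnnb1 (adjusted p = 0.0541) were not called. Leaving out 1 of the 8 libraries of these groups in turn, no fit kept all 4 calls. The count of members called was 0 without control day 7 replicate 1, knockdown day 0 replicate 1 or knockdown day 7 replicate 2, 1 without control day 0 or day 7 replicate 2, 2 without control day 0 replicate 1 or knockdown day 7 replicate 1, and 4 without knockdown day 0 replicate 2, where 3 of the 4 named here remained.

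Genes of the pathway outside the naming rule were taken as 3 lists. Notum, Znrf3, Lgr5 and Rnf43 are on both the list of components and that of targets, so those measured count in each. Of 43 further signalling components 18 were higher and 19 lower at day 7 in the control (all genes 38.6% and 33.7%), with a median of -0.14 beside 0.09 over all genes. Notum, an enzyme that inactivates Wnt proteins, went from 23.8 and 20.6 at day 0 to 1641 and 1669.98 at day 7 (log2 6.16, adjusted p = 3.2e-12). Rspo2, which strengthens Wnt signalling through Lgr receptors, went from 175 and 180.5 to 0.996 and 1.82 (log2 -6.24, adjusted p = 3.4e-08). Beside Notum, the components with the smallest p were Tle4, Ryk and Ror1. Tle4, a co-repressor of TCF factors, rose (log2 1.97, adjusted p = 2.31e-12). The Wnt receptors Ryk (-1.72, adjusted p = 5.21e-12) and Ror1 (-2.96, adjusted p = 3.65e-09) fell. Between arms, over all days, 2 of the 43 components were higher and 4 lower, beside 17.8% of all genes called (10.3% and 7.46%), among the lower Ror2, a receptor of Wnt5a, by 0.25 (adjusted p = 0.000575), and Lgr4, by 0.18 (adjusted p = 0.0195).

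Of 16 genes known as targets of beta-catenin and TCF, 11 were higher and 5 lower at day 7 in the control, beside 72.3% of all genes called (38.6% and 33.7%), with a median of 2.55. Nkd1, a feedback inhibitor, went from 44.7 and 54.8 at day 0 to 289.7 and 309.7 at day 3 and 2086 and 2235 at day 7. Sp5, a zinc finger factor, went from 1.32 and 1.01 at day 0 to 27.03 and 47.9 at day 3 and 144 and 154 at day 7. Both rose, and Apcdd1 (log2 3.88, adjusted p = 3.2e-16) and Tnfrsf19 (7.29, adjusted p = 5.73e-14) did as well, while Wisp1, also listed as a target, fell from 4217 and 4119 to 337 and 289.

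Between the arms these targets were split. Over all days 2 of the 16 were higher in the knockdown and 3 lower, with a median of -0.13, beside 17.8% of all genes called (10.3% and 7.46%). The lower ones were Nkd1, Sp5 and Znrf3, and the higher ones Ccnd1 (cyclin D1) and Wisp1. Nkd1 was at 289.7 and 309.7 in the control and 128 and 202 in the knockdown at day 3, 2582 and 2650.2 against 1599.9 and 1816 at day 5, and 2086 and 2235 against 1969 and 2097 at day 7. It differed by -0.89 (SE 0.176, adjusted p = 0.0102) at day 3 and -0.62 (SE 0.176, adjusted p = 0.0394) at day 5 and overlapped at day 7, as Tcf7 did. Cdx1, a caudal homeobox factor, was listed at 0 in both arms at days 0 and 1 and was at 21.05 and 26.2 in the control against 3.81 and 7.20 in the knockdown at day 3, a difference of -1.96 (SE 0.360, adjusted p = 0.00798). At day 7 it was at 97.01 and 90.1 in the control and 105 and 108 (day 7) in the knockdown.

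Of 4 pluripotency genes known to be repressed by Tcf7l1, 3 (Esrrb, Nanog and Tfcp2l1) were higher at day 7 in the control and Klf2 was not called. Of all genes 38.6% were higher and 33.7% lower. Esrrb and Nanog are also among the 6 pluripotency markers, of which 6 were higher, and a part of Tcf7l1 in these rises was not tested. Esrrb was at 5.76 and 1.24 in the control at day 3, 97.7 and 89.2 at day 5 and 321 and 295 at day 7, and at 45.3 and 33.8 in the knockdown at day 5. Tfcp2l1 was at 5.08 and 9.85 in the control at day 0, 115 and 167 at day 1, 1022 and 1212 at day 3 and 3817 and 3877 at day 7, and Nanog at 2.51 and 6.53 at day 0, 4.77 and 1.88 at day 3 and 245 and 259 at day 7. Klf2 was the 1 gene of this list called between arms, at 638 and 555 in the control and 294 and 275 in the knockdown at day 5, a difference of -1.06 (SE 0.129, adjusted p = 0.000121).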

How the data were processed

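Messenger RNA libraries of 20 samples (2 arms, 5 days, 2 replicates) were sequenced from both ends (Illumina HiSeq), per the labels' protocols. The values are signal, deposited by the authors as 1 table of normalized values for 15757 genes. RSEM 1.2.22, the aligner STAR 2.5.2a, DESeq2 1.22.0, the trimmer Trim Galore 0.4.4 and the build mm10 are named, without roles, per the submitters' processing notes. The normalization, annotation and gene filter are not given in the sources used here. Each gene reached at least 7.61 in some library. Low values were not whole multiples of 1 step (42.8 to 63.4% within 0.1 of a whole step, up to 20 steps), so whole reads were not recovered and no count test was run. Between 75 and 739 genes per library were at 0, and 0 columns were identical.

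Values were taken as log2(value + 1). The filter (at least 1 in at least 2 libraries) removed 0 genes. All libraries entered 1 limma 3.58.1 fit (R 4.3.3) with 10 group means and empirical Bayes with trend and robust settings, checked on simulated data. The 12 comparisons were adjusted over all genes. Levels per kb divide by the exon length in GENCODE M21. Members named with library values by rule were those called between arms or in the difference between arms of the change over time. Members with the 4 largest control changes of each role to day 7 were added. Some of the members so named are shown on part of the days only. Library values of Wnt2, Wnt4, Wnt10a, Wnt16, Fzd3, Fzd5, Fzd6 and Fzd10 were given outside this rule. The lists' genes are those with the smallest p, and others were chosen after their values were seen. Members and lists were chosen with earlier results of these data known. Alternatives were pseudocounts of 0.1 and 5, a mean of at least 20, quantile scaling, the replicate number as a block, a fit of the compared groups, each library left out, and library weights (added after the data were seen). No label gives a batch or date.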

Additional observations from a re-analysis of the deposited data

Results flagged for a closer look

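For 4 members the change from day 0 to day 7 differed between the arms in the limma test of that difference. Dkk3 had a difference of 0.83 (SE 0.182, adjusted p = 0.0147), going from 893 and 1032 to 241 and 253 in the control and from 702 and 718 to 300.4 and 353 in the knockdown. Fzd8 had 0.66 (SE 0.178, adjusted p = 0.0381), going from 515 and 507 to 130.4 and 134 in the control and from 481 and 552 to 218 and 205 in the knockdown. Sfrp1 had -0.49 (SE 0.128, adjusted p = 0.0342), going from 708 and 737 to 1855 and 1905 in the control and from 659 and 594 to 1226 and 1098 in the knockdown. Ctnnb1 had -0.31 (SE 0.0827, adjusted p = 0.038), going from 16171 and 14909 to 21891 and 22135 in the control and from 16398 and 17093 to 19042 and 19267 in the knockdown. For Dkk3 the knockdown was the lower pair at day 0 and the higher pair at day 7, while for Sfrp1 it was the lower pair on both days. Leaving out single libraries of these groups, Dkk3 was lost without 3 of the 8 (adjusted p up to 0.0845), Sfrp1 without 6 (0.16), and Fzd8 (0.155) and Ctnnb1 (0.113) without 7 each. With the replicate number as a block Fzd8 (adjusted p = 0.0518) and Ctnnb1 (adjusted p = 0.0541) were not called.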

How the results depend on the processing

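Of 151 counts of called members under alternatives 127 stayed within 1.5 times the reported count, and of 813 values of single members 715 kept direction and call, 98 lost the call and 0 reversed. All but 3 of those losses came from leaving out a library. Quantile scaling gave 13 calls at day 5 and 8 at day 7, library weights 14 and 10, and a fit of the compared groups 8 at day 7. A pseudocount of 0.1 gave 1 at day 0. Leaving out single libraries gave 0 to 1 calls at day 0, 0 to 3 at day 3, 2 to 10 at day 5, 2 to 5 at day 7, 10 to 15 for the mean of all days and 0 to 4 for the difference between arms in the change over time; the cause was not tested beyond the smaller number of libraries. Within the control, the counts against day 0 ranged from 35 to 37 at day 7. With the replicate number as a block, the difference between arms kept 2 of its 4 calls, and Ctnnb1 (adjusted p = 0.0541) and Fzd8 (0.0518) were lost. Libraries of the same number did not deviate together (correlations of deviations from -0.079 to 0.152 over 45 pairs of groups, 1 of them over 0.1), so the numbers were not taken to pair libraries. Alternatives were not run for genes of the other pathway lists. The mean of all days has no fit of the compared groups alone, since all groups enter it. Members near 1 step, such as Dkk4, Dkk1 and Wnt3 at day 0, rest on few reads.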
